A study of Mus musculus with 12 samples.

Results

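Fibronectin, laminin and their closest basement membrane partners were followed as transcripts in laser-captured white matter of the mouse spinal cord. The 10 genes were taken by name from the table of 46078 genes: Fn1 for fibronectin, Lama1, Lama2, Lama4 and Lama5 for laminin alpha chains, Lamb1 and Lamb2 for beta chains, Lamc1 for the gamma-1 chain, Nid1 for nidogen-1 and Hspg2 for perlecan. All 10 had a row, and all 10 passed the filter on low counts, among 15866 genes tested. The mice were C57Bl6 and formed 4 groups, naïve and injured mice that were either young or middle-aged. The study's methods describe as female the C57Bl/6 mice lesioned at other ages, and give no sex in the section on this experiment. Injured mice had received the demyelinating lipid lysolecithin in the ventrolateral white matter 72 h (day 3) earlier, whereas naïve mice had no lesion and no injection, so that effects of lysolecithin and of the injection itself cannot be told apart. The methods give an age of 6 weeks for the young and 8 months for the middle-aged mice of this experiment, and the labels give only the words. Each of the 12 libraries was a pool of 5 mice, with 3 pools per group, so that the spread between mice within a pool was not measured.

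Fibronectin is a soluble glycoprotein that cells assemble into fibrils through integrin receptors, and in the adult central nervous system it reaches the tissue from plasma as well as from local cells. Laminins are trimers of an alpha, a beta and a gamma chain that polymerise into the sheet of a basement membrane. Nidogens and perlecan link that sheet to the type IV collagen network. In white matter, basement membranes lie around blood vessels and under the outer glial surface, and integrins and dystroglycan are their receptors.

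The totals ran from 9834447 to 12807437 counts per pool, and 3 counts, taken as the floor of detection, equalled 0.234 to 0.305 CPM, a count scaled to a common library size. RNA was amplified before sequencing, so that floors and counting intervals cover counting error only. The labelled tissue carried its markers: 6 oligodendrocyte genes summed to 83480 to 97425 CPM in young naïve pools and 50693 to 58011 CPM in middle-aged naïve pools, and to 7630 to 20015 CPM after injury. Astrocyte markers summed to 9606 to 11686 CPM in naïve and 3508 to 5517 CPM in injured pools, and neuronal markers to 681 to 1976 and 275 to 480 CPM. Schwann cell markers stayed at or under 106 CPM and blood markers at or under 11.4 CPM in every pool. Replicate 2 of the middle-aged naïve group stood apart, with correlations of log2 CPM of 0.937 and 0.945 with its group, against 0.967 or more for all other pairs of replicates. Values without it are given beside several of the results that include it.

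Promoter sequence from RefSeq (GRCm38.p6) was matched for 6 of the 10 genes, and 3 are shown because they belong to genes that moved in different ways: Lamb1 and Hspg2 rose after injury at both ages, and Nid1 fell with age. Each window holds 190 bases, from 250 to 61 bases before the RefSeq start and upstream of every annotated transcript of its gene. Capitals mark GC boxes (GGGCGG, either strand). The windows lie at chr12:31265043-31265232 for Lamb1, chr4:137468553-137468742 for Hspg2 and chr13:13437352-13437541 for Nid1, all on the plus strand.
Lamb1: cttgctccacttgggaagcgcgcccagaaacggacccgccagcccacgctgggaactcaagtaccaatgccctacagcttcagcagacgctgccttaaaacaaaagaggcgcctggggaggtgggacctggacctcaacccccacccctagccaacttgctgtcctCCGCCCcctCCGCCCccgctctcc
Hspg2: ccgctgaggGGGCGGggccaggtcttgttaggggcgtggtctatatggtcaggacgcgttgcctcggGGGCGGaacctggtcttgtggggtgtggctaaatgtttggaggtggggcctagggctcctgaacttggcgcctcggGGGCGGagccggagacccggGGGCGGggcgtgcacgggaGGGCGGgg
Nid1: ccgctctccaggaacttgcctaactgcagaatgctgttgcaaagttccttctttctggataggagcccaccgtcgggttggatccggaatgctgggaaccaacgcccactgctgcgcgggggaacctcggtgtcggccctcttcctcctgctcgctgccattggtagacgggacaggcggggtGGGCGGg
The Hspg2 window held 5 GC boxes, the Lamb1 window 2 and the Nid1 window 1, and 22.8% of the 32851 promoter windows of that length held at least 1. The letters CCAAT (either strand) were found in the Lamb1 and Nid1 windows, and in 26.7% of all windows. None of the 6 matched windows held TATAAA (8.73% of all windows), the AP-1 motif TGANTCA (5.22%) or the CRE motif TGACGTCA (0.70%), each searched on both strands. The windows end 61 bases before the start, so motifs nearer to it, TATAAA among them, could not be found. Of the windows not shown, those of Lamb2 and Lama2 did not lie upstream of every annotated transcript of their gene. The GC content was 64.2% for Lamb1, 70.5% for Hspg2 and 62.6% for Nid1, against a median of 51.6% over all windows.

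In naïve white matter the gamma-1 chain had the highest transcript level of the 10 when levels were divided by the length of all annotated exons. Its gene, Lamc1, averaged 23.5 ± 3.08 CPM per kilobase (SD, n = 3) in young naïve pools, ahead of Nid1 at 13.9 ± 2.68 and Fn1 at 3.27 ± 0.64 CPM per kilobase, with no overlap between neighbours. Lamb2 followed at 1.33 ± 0.086 CPM per kilobase. The other 6 genes lay between 0.13 and 0.37 CPM per kilobase, and each overlapped its neighbour in the order. In middle-aged naïve pools the order at the top was the same, but Nid1 at 5.05 ± 1.06 and Fn1 at 4.40 ± 2.03 CPM per kilobase overlapped. The order between genes rests on the length used, which for Lama4 is 12068 bases against 6046 in its longest transcript. Orders by other lengths were not made. Whether amplification favoured some genes over others was not tested either, so the order is of measured levels only.

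After injury Fn1 took the first place at both ages. It averaged 89.3 ± 12.8 CPM per kilobase in young and 83.4 ± 4.01 in middle-aged injured pools, above Lamc1 at 27.2 ± 1.51 and 20.2 ± 1.03 and Nid1 at 8.12 ± 1.74 and 4.73 ± 0.88. By the same length Lama4 came next, at 2.05 ± 0.33 CPM per kilobase in young injured pools, where it overlapped Lamb2. In middle-aged injured pools Lama4 stood at 1.54 ± 0.032 CPM per kilobase and did not overlap Lamb2.

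**Figure D1:**
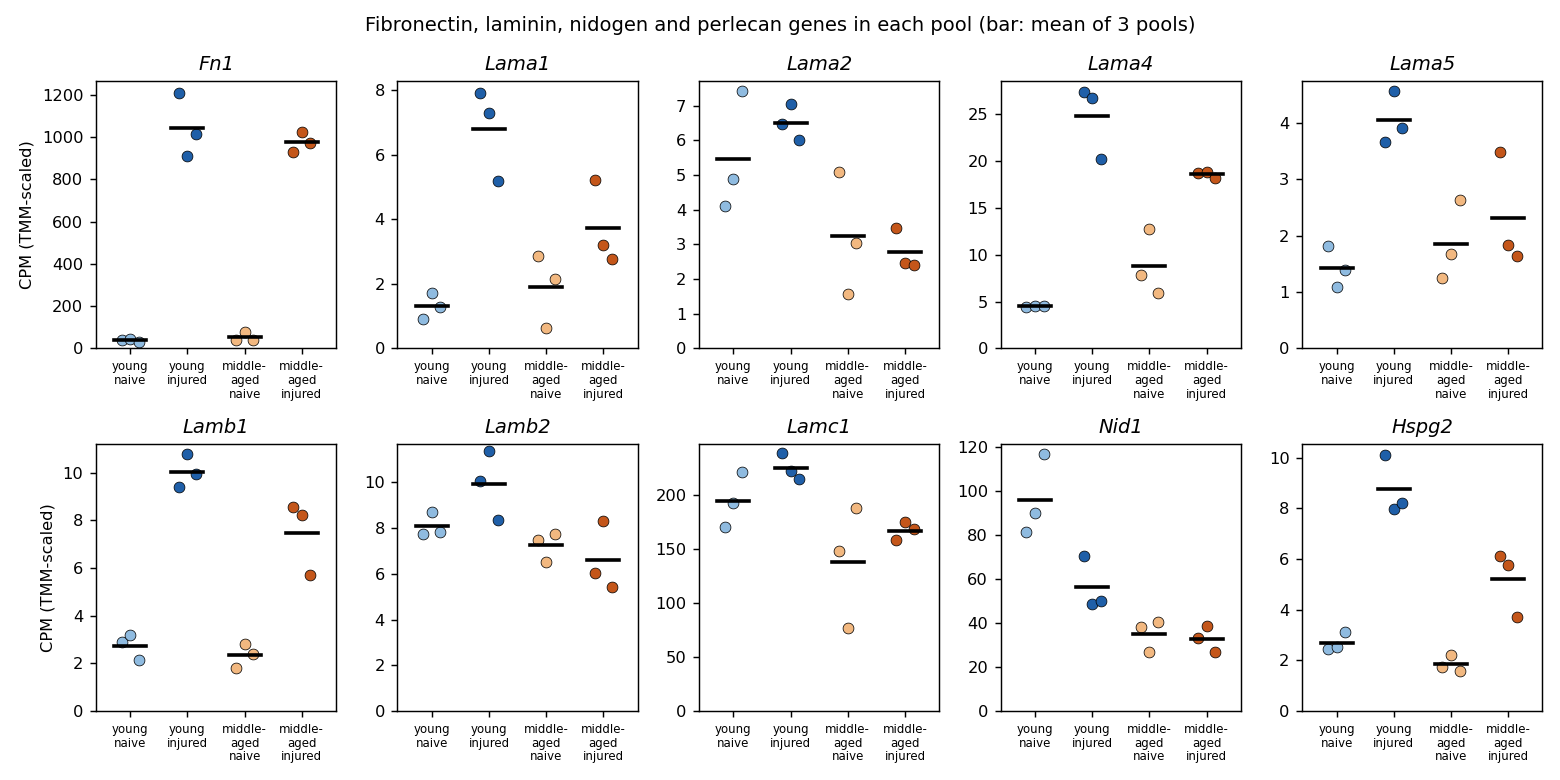
Level of each gene in each pool (y axis, CPM scaled by TMM factors, a separate scale from 0 for each gene; x axis, group; 1 point per pool, bar at the mean of 3 pools). Fn1 lies between 30.9 and 78.8 CPM in naïve and between 912 and 1206 CPM in injured pools, while Nid1 is highest in the young naïve pools, at 81.5 to 117 CPM.

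The first question was which of these genes changed between naïve and injured tissue. In young mice 6 of the 10 rose, 1 fell and 3 did not pass the test (edgeR, adjusted p under 0.05 over all genes), where 28.3% of all genes tested rose and 26.3% fell. The median log2 fold change of the 10 genes was 1.59, against 0.00054 for all genes. In middle-aged mice 4 rose, where 29.2% of all genes rose, and none fell, where 29.3% fell. No member was lower at an unadjusted p under 0.05 either, where 31.7% of all genes were. DESeq2 gave the same counts, with 24.5% of all genes higher and 23% lower. The median was 0.64, against -0.032 for all genes. The count of 4 was the same without the middle-aged naïve pool that stood apart. Scaling by library totals alone moved the median of all genes by 0.20 in young mice and left both counts as they were.

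Fn1 encodes fibronectin and lies on chromosome 1 at 71585520 to 71653200 (GRCm38, minus strand), with 46 exons in its longest annotated transcript. Counts were per gene, so splice forms that differ in their extra domains were not told apart. Young naïve pools gave 37.9, 45.9 and 30.9 CPM and young injured pools 1206, 912 and 1014 CPM. Every injured pool was far above every naïve pool. The difference was 27.3-fold, a log2 fold change of 4.77 (SE 0.27, adjusted p = 4.63e-09, edgeR). In middle-aged mice naïve pools gave 38.3, 78.8 and 37.3 CPM and injured pools 929, 1023 and 972 CPM, a 19.0-fold difference (log2 4.25, SE 0.27, adjusted p = 9.05e-09, edgeR). The value of 78.8 CPM came from the pool that stood apart, and without it the log2 fold change was 4.69. By log2 fold change Fn1 had rank 400 of 15866 genes in young and rank 499 in middle-aged mice. An antisense gene, Apol7d, shares 292 exon bases with Fn1 but had 29 counts over all 12 pools against 79743 for Fn1, and the strand setting of the counting is not given in the sources used here.

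The alpha chain decides which receptors a laminin binds. Lama4, the alpha-4 chain of vessel basement membranes, lies on chromosome 10 at 38965515 to 39110188 (plus strand). It measured 4.46, 4.53 and 4.52 CPM in young naïve and 27.4, 26.7 and 20.2 CPM in young injured pools. The naïve values were nearly alike and the injured values lay well above them, a 5.49-fold difference (log2 2.46, SE 0.25, adjusted p = 1.45e-06, edgeR). In middle-aged mice it measured 7.87, 12.7 and 5.92 CPM in naïve and 18.8, 18.8 and 18.1 CPM in injured pools. The groups did not overlap and differed 2.12-fold (log2 1.08, SE 0.24, adjusted p = 0.00131, edgeR). The value of 12.7 CPM came from the pool that stood apart, and without it the log2 fold change was 1.44 (adjusted p = 1.85e-05).

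Lama1, the alpha-1 chain best known from early basement membranes and from the meninges, lies on chromosome 17 at 67697259 to 67822647 (plus strand). It rested on few counts in naïve tissue, between 10 and 19 in young pools and between 6 and 30 in middle-aged pools. In young mice it rose from 0.91, 1.72 and 1.29 CPM to 7.93, 7.29 and 5.20 CPM, which was 5.17-fold (log2 2.37, SE 0.46, adjusted p = 0.000517, edgeR). In middle-aged mice naïve pools gave 2.88, 0.63 and 2.16 CPM and injured pools 5.23, 3.19 and 2.76 CPM. These groups overlapped, and the log2 fold change of 0.96 (95% interval 0.012 to 1.91) had an adjusted p of 0.0762. Without the pool that stood apart, which gave 0.63 CPM, it was 0.57 (adjusted p = 0.191), and without replicate 1 of the same group it was 1.37 (adjusted p = 0.0265, edgeR). Over the 12 pools left out in turn the adjusted p ran from 0.0265 to 0.293 and passed the threshold in the last of these cases only.

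Lama5, the alpha-5 chain of mature vessels, lies on chromosome 2 at 180176373 to 180225859 (minus strand). In young mice Lama5 gave 1.82, 1.09 and 1.40 CPM in naïve pools and, in injured pools, 3.67, 4.57 and 3.92 CPM. It rose 2.81-fold (log2 1.49, SE 0.40, adjusted p = 0.00572, edgeR), with no overlap. Middle-aged naïve pools gave 1.25, 1.68 and 2.64 CPM and middle-aged injured pools 3.49, 1.84 and 1.64 CPM, which overlapped. The log2 fold change of 0.31 in middle-aged mice had a 95% interval of -0.54 to 1.16.

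Lama2, the alpha-2 chain that binds dystroglycan in muscle, nerve and glial basement membranes, lies on chromosome 10 at 26980036 to 27619758 (minus strand). It passed the test at neither age. Naïve pools of young mice gave 4.10, 4.89 and 7.42 CPM and young injured pools 6.46, 7.05 and 6.02 CPM. The 95% interval of the log2 fold change was -0.50 to 1.01 in young and -1.02 to 0.59 in middle-aged mice, so that changes up to those sizes could not be told from none. Without the pool that stood apart the value in middle-aged mice was -0.53, against -0.22 with it. An antisense gene, Gm48084, shares 631 exon bases with Lama2, which had 634 counts over the 12 pools. Its own counts were not analysed here, and without a known strand setting reads of the overlap cannot be told apart. Among the alpha chains the injured pools were thus all above the naïve pools for Lama1, Lama4 and Lama5 in young mice, and for Lama4 alone in middle-aged mice.

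Lamb1, the beta-1 chain, lies on chromosome 12 at 31265234 to 31329644 (plus strand), directly after the promoter window shown above. Lamb1 in young naïve pools gave 2.91, 3.17 and 2.15 CPM and young injured pools 9.40, 10.8 and 9.94 CPM. It rose 3.63-fold in young mice (log2 1.86, SE 0.26, adjusted p = 2.80e-05, edgeR), with no overlap. Middle-aged naïve pools gave 1.82, 2.83 and 2.40 CPM and injured pools 8.55, 8.22 and 5.70 CPM. There too every injured pool was higher, by 3.18-fold (log2 1.67, SE 0.26, adjusted p = 7.88e-05, edgeR).

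Lamb2, the beta-2 chain of synapses, vessels and the glial surface, lies on chromosome 9 at 108479736 to 108490530 (plus strand). Young naïve pools gave 7.74, 8.70 and 7.85 CPM and young injured pools 10.1, 11.4 and 8.36 CPM, which overlapped. The log2 fold change was 0.29 (95% interval -0.16 to 0.75) in young and -0.14 (-0.60 to 0.33) in middle-aged mice.

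Lamc1, the gamma-1 chain shared by most laminins, lies on chromosome 1 at 153218922 to 153332786 (minus strand). Young naïve pools gave 170, 192 and 221 CPM and young injured pools 239, 222 and 215 CPM. These groups overlapped, and the log2 fold change of 0.21 had a 95% interval of -0.27 to 0.69. Middle-aged naïve pools gave 148, 76.9 and 188 CPM and middle-aged injured pools 158, 175 and 168 CPM, a log2 fold change of 0.28 (95% interval -0.20 to 0.76). The value of 76.9 CPM came from the pool that stood apart, and without it the log2 fold change was -0.0034. Without replicate 3 of the same group it was 0.57 (adjusted p = 0.0341, edgeR). Over the 12 pools left out in turn the adjusted p ran from 0.0341 to 0.983.

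Hspg2, which encodes perlecan, lies on chromosome 4 at 137468769 to 137570630 (plus strand) and has 97 exons in its longest transcript. It measured 2.46, 2.54 and 3.12 CPM in young naïve and 10.1, 7.98 and 8.21 CPM in young injured pools. In middle-aged mice it measured 1.73, 2.20 and 1.60 CPM in naïve and 6.14, 5.75 and 3.71 CPM in injured pools. It rose at both ages, 3.24-fold (log2 1.70, SE 0.27, adjusted p = 9.78e-05) and 2.83-fold (log2 1.5, SE 0.28, adjusted p = 0.000376, edgeR).

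Nid1, the linker between laminin and type IV collagen, lies on chromosome 13 at 13437551 to 13512269 (plus strand). It was the only one of the 10 genes to fall. Young naïve pools gave 81.5, 90.0 and 117 CPM and young injured pools 70.3, 48.8 and 50.1 CPM. Every injured pool was below every naïve pool, and Nid1 fell by 0.77 on the log2 scale (SE 0.20, adjusted p = 0.00514, edgeR). In middle-aged mice naïve pools gave 38.3, 26.7 and 40.3 CPM and injured pools 33.0, 38.9 and 26.7 CPM, a difference of -0.10 (95% interval -0.54 to 0.35), which was -0.25 without the pool that stood apart. The antisense gene Gm48682, also not analysed here, shares 143 exon bases with Nid1, and the same limit holds there. In young mice Nid1 thus moved against the other basement membrane linkers, Hspg2 and the partner gene Nid2, which is described further on. In middle-aged mice Hspg2 and Nid2 rose, and no change of Nid1 was shown.

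**Figure D2:**
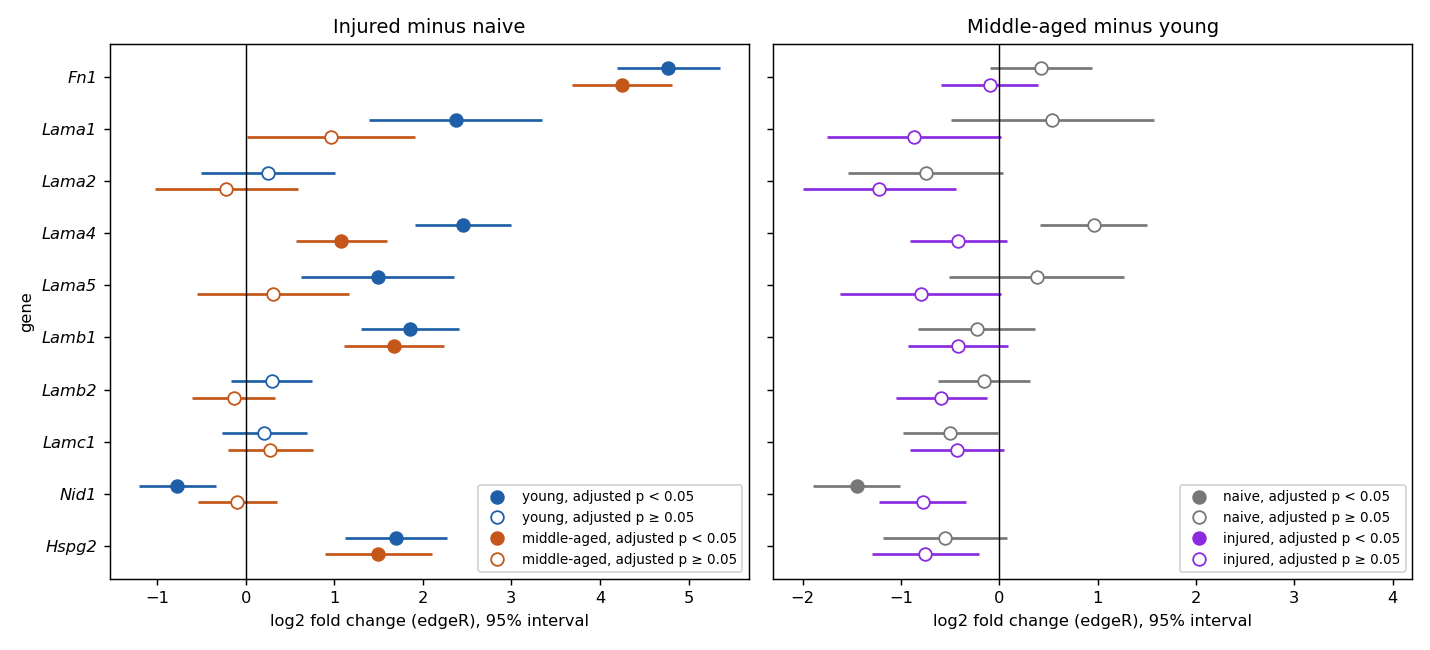
Log2 fold change with its 95% interval for each gene (x axis; edgeR, all 12 pools in 1 fit), for injured minus naïve mice (left) and for middle-aged minus young mice (right), with filled points where the adjusted p was under 0.05. Filled points on the left mark 7 genes in young and 4 in middle-aged mice, and on the right Nid1 in naïve mice alone.

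Markers of other cell types moved with these changes. The 8 fibroblast and meningeal markers, which include Col1a1, Col3a1 and Dcn, summed to 155 to 167 CPM in young naïve and 1082 to 1621 CPM in young injured pools, and 8 of 8 rose. In middle-aged mice they went from 138 to 218 CPM up to 564 to 995 CPM, and 6 of 8 rose. The sum of the 8 myeloid markers was 80.6 to 114 CPM in young naïve and 1631 to 1670 CPM in young injured pools. At 8 months it was 128 to 178 CPM before and 1722 to 2264 CPM after injury, and 8 of 8 rose at each age. The 6 markers of monocytes and macrophages summed to at most 3.17 CPM in naïve pools, where Ccr2, Chil3 and F10 had 0 counts in every young pool, and to 269 to 650 CPM after injury.

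Vessel markers moved less. The 11 endothelial markers summed to 364 to 499 CPM in young naïve and 329 to 402 CPM in young injured pools, and to 482 to 592 and 416 to 443 CPM in middle-aged pools. At each age 4 of the 11 rose and 2 fell. Of all genes tested, 28.3% rose and 26.3% fell in young and 29.2% rose and 29.3% fell in middle-aged mice. These shares are the background for all counts of markers after injury. The 8 mural cell markers summed to between 256 and 411 CPM in all pools, with 4 higher and 2 lower in young and 3 higher and 3 lower in middle-aged mice. The part of any of these cell types in the changes of Fn1 and the laminin genes was not tested. In pooled tissue, more cells of a type and more RNA per cell cannot be told apart.

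Which laminin chains prevailed was read as shares within a pool, which do not depend on how libraries are scaled. Lamb1 made up 18.8%, 18.3% and 14.4% of the Lamb1 and Lamb2 counts per kilobase in young naïve pools and 36.4%, 36.7% and 42.2% in young injured pools. In middle-aged mice it made up 13.0%, 21.1% and 15.9% in naïve and 46.4%, 37.8% and 39.1% in injured pools. Every injured pool was above every naïve pool of either age. The difference of means was 21.3 percentage points in young and 24.4 in middle-aged mice (2-sided exact permutation tests, p = 0.1 each, the smallest that 3 pools against 3 allow). Over both ages, with labels exchanged within each, it was 22.9 points (exact p = 0.005, the smallest of 400 arrangements). It stayed between 21.5 and 24.0 points when any 1 pool was left out.

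Among the 4 alpha chains, Lama4 made up 38.8% ± 3.94 (SD, n = 3) in young naïve and 58.4% ± 1.19 in young injured pools, and 56.1% ± 18.5 and 67.5% ± 7.01 in middle-aged pools. Lama2 made up 34.0% ± 6.94 and 11.5% ± 1.12 in young pools, and 15.4% ± 7.87 and 7.38% ± 0.69 in middle-aged pools. The share of Lama2 was lower after injury by 15.3 points over both ages (value -15.3, exact permutation p = 0.015, adjusted p = 0.06 over 4 chains), and that of Lama4 was higher by 15.5 points (exact p = 0.04, adjusted p = 0.08), so that neither passed after adjustment. Both differences were made smaller by the middle-aged naïve pool that stood apart. In it Lama4 made up 77.3%, against 47.6% and 43.4% in the other pools of its group. Without that pool the differences were -17.4 points for Lama2 and 20.8 points for Lama4 (exact permutation tests, adjusted p = 0.01 each). With the length of the longest transcript in place of all exons the adjusted p was 0.04 for both, and with Lama3 added to the sum it was 0.04 for Lama2 and 0.127 for Lama4. Over the 12 pools left out in turn it ran from 0.01 to 0.08 for Lama2 and from 0.01 to 0.18 for Lama4.

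Lama1 and Lama5 held smaller shares, 13.9% ± 4.24 and 13.2% ± 4.43 in young naïve pools, which differed between injured and naïve pools by 3.51 and -3.71 points (exact permutation tests, adjusted p = 0.25 and 0.22).

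**Figure D3:**
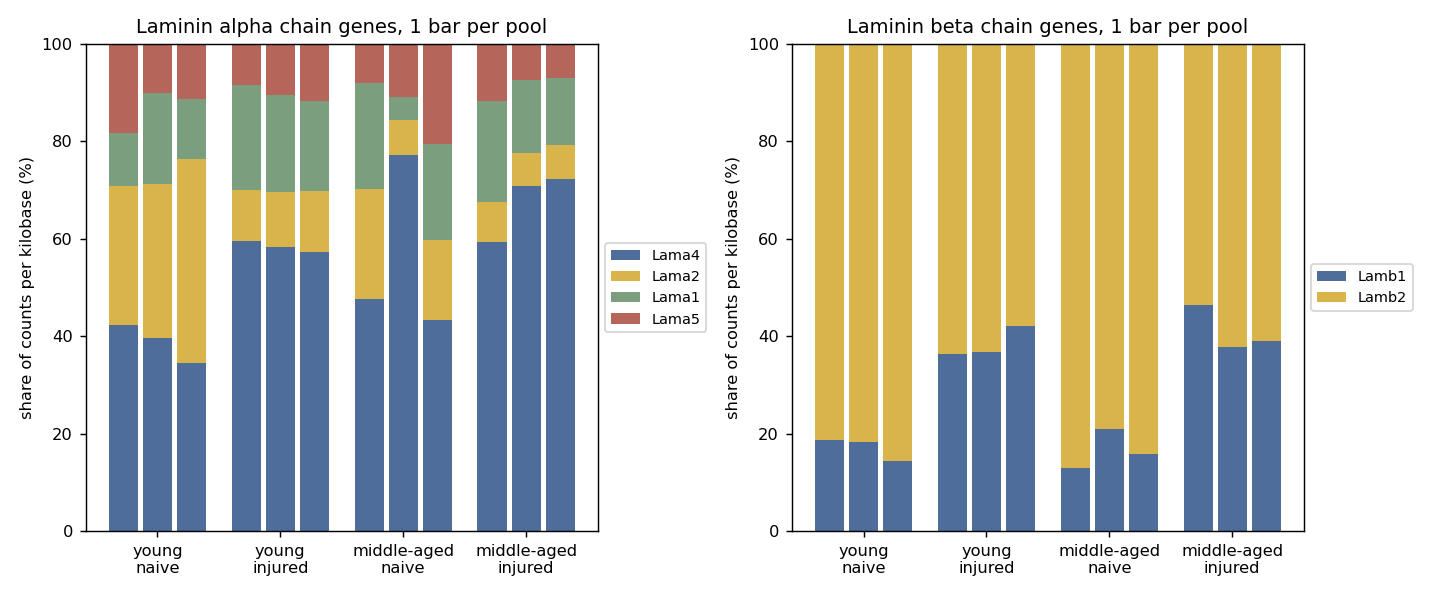
Share of each laminin alpha chain gene (left) and beta chain gene (right) in the counts per kilobase of its kind, 1 bar per pool (y axis, percent, each bar sums to 100; x axis, group). The Lamb1 part of the bar rises from 13.0 to 21.1% in naïve pools to 36.4 to 46.4% in injured pools, and the second middle-aged naïve bar shows the Lama4 share of 77.3%.

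Among laminin chains outside the 10 members, Lamb3 had 0 to 9 counts per pool and was not tested. Lama3 passed in young mice (2 to 13 counts in naïve and 31 to 38 in injured pools, adjusted p = 0.0364, past the threshold in 7 of 12 fits with 1 pool left out) and not in middle-aged mice, where 1 naïve pool had 42 counts. Lamc3 had a log2 fold change of -0.46 in young and -0.65 in middle-aged mice (adjusted p = 0.382 and 0.274, edgeR).

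The second question was how the same genes differed between ages. In naïve tissue 1 of the 10 genes was lower in middle-aged mice and none was higher, where 1.78% of all genes tested were lower and 2.02% higher (edgeR). At an unadjusted p under 0.05, 1 gene was higher and 2 were lower, where 9.81% and 8.53% of all genes were. DESeq2 called 1 higher and 1 lower, where it called 3.76% and 3.04% of all genes. The gene that was lower was Nid1, at 26.7 to 40.3 CPM in middle-aged naïve against 81.5 to 117 CPM in young naïve pools. It was 2.73-fold lower (log2 -1.45, SE 0.21, adjusted p = 0.00189), below 98.7% of all genes tested by log2 fold change. Across the 7 other settings and the 12 pools left out in turn, Nid1 stayed past the threshold. The oligodendrocyte markers were also lower in these pools, with 3 of 6 called and no overlap of their sums, and the part of this in the Nid1 result was not tested.

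The gene that was higher by DESeq2 was Lama4, at 5.92 to 12.7 CPM in middle-aged naïve against 4.46 to 4.53 CPM in young naïve pools. Every middle-aged pool was higher, and the log2 fold change was 0.96 (SE 0.25), but the adjusted p of 0.0521 missed the threshold in edgeR. Under 7 other settings the adjusted p ran from 0.0120 to 0.312 and passed in 4 of them. With pools left out in turn it ran from 0.0139 to 0.148 and passed only without replicate 3 of the middle-aged naïve group. Without the pool that stood apart the log2 fold change was 0.61 (adjusted p = 0.12). The myeloid markers were higher in middle-aged naïve pools as well, with 5 of 8 called, or 2 to 5 with 1 pool left out. Their part was not tested. Fn1 did not differ beyond its spread, with a log2 fold change of 0.42 (95% interval -0.10 to 0.94), which was -0.021 without the pool that stood apart. Of the other 7 genes, Lamc1 at -0.50 (95% interval -0.98 to -0.016) had an unadjusted p of 0.0438 and an adjusted p of 0.255, and stood at -0.21 without the pool that stood apart.

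In injured tissue no member passed the test between ages (edgeR), where in middle-aged mice 0.24% of all genes were higher and 0.908% lower. At an unadjusted p under 0.05, 4 genes were lower, where 6.45% of all genes were, and DESeq2 called Nid1 alone, where it called 1.97% of all genes lower. All 10 log2 fold changes were nonetheless below 0, with a median of -0.67 against 0.0022 for all genes. For 8 of the 10 genes every middle-aged injured pool lay below every young injured pool, as it did for 12.2% of all genes tested. The 2 exceptions were Fn1 and Lama1. The count was 7 with DESeq2-type size factors, where 11.4% of all genes lay so, and 9 with library totals as the scaling, where 16.7% did.

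The values behind this pattern were modest. Lama2 had 6.46, 7.05 and 6.02 CPM in young injured and 3.49, 2.47 and 2.42 CPM in middle-aged injured pools, a log2 fold change of -1.22 (SE 0.36, adjusted p = 0.154, edgeR). Nid1 had 70.3, 48.8 and 50.1 against 33.0, 38.9 and 26.7 CPM, a log2 fold change of -0.78 (SE 0.21, adjusted p = 0.102, edgeR). Hspg2 stood at -0.75 (SE 0.26, adjusted p = 0.244) and Lamb2 at -0.59 (SE 0.21, adjusted p = 0.297, edgeR).

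The calls in injured tissue depended on which pools set the error. When only the 6 injured pools entered the fit, Lama2, Lamc1 and Nid1 passed (adjusted p = 0.00961, 0.0156 and 0.0195, edgeR), but the share of all genes called lower also went up, from 0.908% to 3.28%. When the middle-aged naïve pool that stood apart was left out, Lama2 and Nid1 passed (adjusted p = 0.0381 and 0.0345), and 1.78% of all genes were called lower. Over 7 other settings the adjusted p of Nid1 ran from 0.00531 to 0.133 and passed in 3. Fn1 was alike in level at both ages, with a log2 fold change of -0.10 (95% interval -0.59 to 0.39), and changes up to those sizes could not be told from none. The fibroblast and meningeal markers were lower in middle-aged injured pools, with sums of 564 to 995 CPM against 1082 to 1621 CPM and 2 of 8 called, Col1a1 and Col1a2. Of the 6 oligodendrocyte markers 5 were also called lower. With 1 pool left out, 0 to 3 of the fibroblast and meningeal and 2 to 5 of the oligodendrocyte markers were called lower. Other markers were higher in middle-aged injured pools. The monocyte and macrophage markers summed to 399 to 650 CPM against 269 to 354 CPM. Of these 6 markers 1 was called, F10, and 0 to 3 were with 1 pool left out. The endothelial markers summed to 416 to 443 CPM against 329 to 402 CPM, with none of 11 called. The part of any of these in the lower laminin levels was not tested.

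The third question was whether the response to injury itself differed between ages. The interaction test called none of the 10 genes (edgeR), where it called 22 of 15866 genes, or 0.139%. At an unadjusted p under 0.05 there were 3, Lama4, Lama1 and Nid1, where 9.92% of all genes passed, and DESeq2 called 1, Lama4, where it called 1.72% of all genes. For Lama4 the injury effect in middle-aged minus young mice was -1.38 on the log2 scale (SE 0.34, adjusted p = 0.142), and -1.02 without the pool that stood apart. Under 6 other settings its adjusted p ran from 0.0206 to 0.147 and passed in 2, DESeq2 and edgeR without a filter, the latter with 1.21% of all genes called. With 1 pool left out it passed in 0 of 12 fits. Lama1 differed by -1.41 (SE 0.64, adjusted p = 0.483), or -1.80 without that pool, and Nid1 by 0.67 (SE 0.29, adjusted p = 0.457, edgeR). For Fn1 the difference was -0.52 with a 95% interval of -1.24 to 0.19, and -0.078 without the pool that stood apart. It was, for Lamb1 -0.19 (-0.98 to 0.60) and for Hspg2 -0.20 (-1.04 to 0.64). Genes that passed in young mice and not in middle-aged mice, such as Lama1 and Lama5, and Lama4, which passed in both, are therefore not shown to respond differently.

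The partners of the 10 genes in the basement membrane were taken from a list of 21 genes. In young mice 11 rose and 1 fell, and in middle-aged mice 8 rose and 4 fell, with medians of 1.12 and 0.41. Of all genes, 28.3% rose and 26.3% fell in young and 29.2% rose and 29.3% fell in middle-aged mice, the background for this count and for those of the lists that follow. In young mice the greatest changes were those of Col18a1, whose product carries endostatin, at 3.80 (SE 0.37), and Npnt, which encodes the integrin ligand nephronectin, at 3.45 (SE 0.22). In middle-aged mice Col18a1 stood at 3.55 (SE 0.38) and Npnt at 2.30 (SE 0.21), all on the log2 scale (edgeR). There Col4a2 at 2.46 and Nid2 at 2.36 lay above Npnt. Col4a6, a type IV collagen chain, followed at 3.36 (SE 0.26) in young mice. Nid2, the second nidogen, went from 4.52 ± 0.84 to 30.1 ± 2.76 CPM (SD, n = 3 pools) in young mice and, at middle age, from 4.55 ± 1.53 to 23.4 ± 1.18 CPM, while Nid1 did not rise at either age. Chosen after their values were seen, the genes that fell were Smoc1 in both ages and Frem1, Frem2 and Sparc in middle-aged mice. With 1 pool left out, Smoc1 in young mice passed in 7 of 12 fits, Frem1 in 5 and Sparc in 9, the last not without the pool that stood apart.

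Genes that bind, crosslink or share fibrils with fibronectin made up a list of 18. In young mice 17 rose and 1 fell, and in middle-aged mice 16 rose and 1 fell, with medians of 2.74 and 2.38. Thbs1, the matricellular thrombospondin-1, changed most, from 1.14 ± 0.44 to 324 ± 127 CPM in young mice and, at middle age, from 1.49 ± 0.39 to 711 ± 133 CPM. Lox, which crosslinks collagen and elastin, rose by 5.01 (SE 0.48) and 5.07 (SE 0.51) on the log2 scale, and Ecm1 by 4.92 (SE 0.36) and 5.43 (SE 0.37). The gene that fell at both ages was Vtn, which encodes vitronectin, at -0.63 (adjusted p = 0.0262) and -1.85 (adjusted p = 7.91e-06, edgeR). Its call in young mice was lost without replicate 2 of the young naïve or replicate 3 of the young injured group.

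Receptors were counted by ligand. Of 14 genes listed as fibronectin receptors 13 were tested, and 11 rose and 1 fell at each age. The 11 include Plaur, named for its ligand urokinase, so the list is wider than receptors of fibronectin alone. Itga5, the alpha subunit of the main fibronectin receptor, went from 1.23 ± 0.85 to 38.2 ± 2.26 CPM in young mice and, at middle age, from 1.19 ± 0.45 to 43.3 ± 8.93 CPM, which was 4.91 (SE 0.37) and 5.16 (SE 0.37) on the log2 scale. Plaur, the urokinase receptor, rose by 5.39 (SE 0.39) and 4.71 (SE 0.35), and Itga4, which pairs with beta-1 on leukocytes, by 2.91 (SE 0.24) and 4.10 (SE 0.26). Itgb8 was the gene that fell. Itgb6 had at most 3 counts in every pool of the naïve and of the middle-aged injured groups and was not tested.

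Of 16 genes for laminin receptors and the enzymes that glycosylate dystroglycan, 15 were tested. In young mice 5 rose and 5 fell and in middle-aged mice 6 rose and 5 fell, with medians of -0.055 and 0.44, which were near the values of all genes in young mice. Itga6, a laminin-binding integrin alpha chain, went up from 175 ± 7.03 to 813 ± 13.9 CPM in young mice and, at middle age, from 150 ± 16.4 to 952 ± 97.3 CPM. Itgb4, 1 of the beta chains that pair with it, fell from 34.1 ± 11.2 to 6.43 ± 0.40 and from 33.4 ± 12.3 to 6.22 ± 1.1 CPM. Itgb1, the beta-1 chain counted above with the fibronectin receptors, rose by 1.73 in young and 2.42 in middle-aged mice on the log2 scale (edgeR). It is named here outside the naming rule, after its values were seen. Sdc1, a cell surface heparan sulfate proteoglycan, rose by 3.19 (SE 0.33) and 3.51 (SE 0.33) on the log2 scale. Sgcd had at most 1 count in every middle-aged naïve pool and was not tested.

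**Figure D4:**
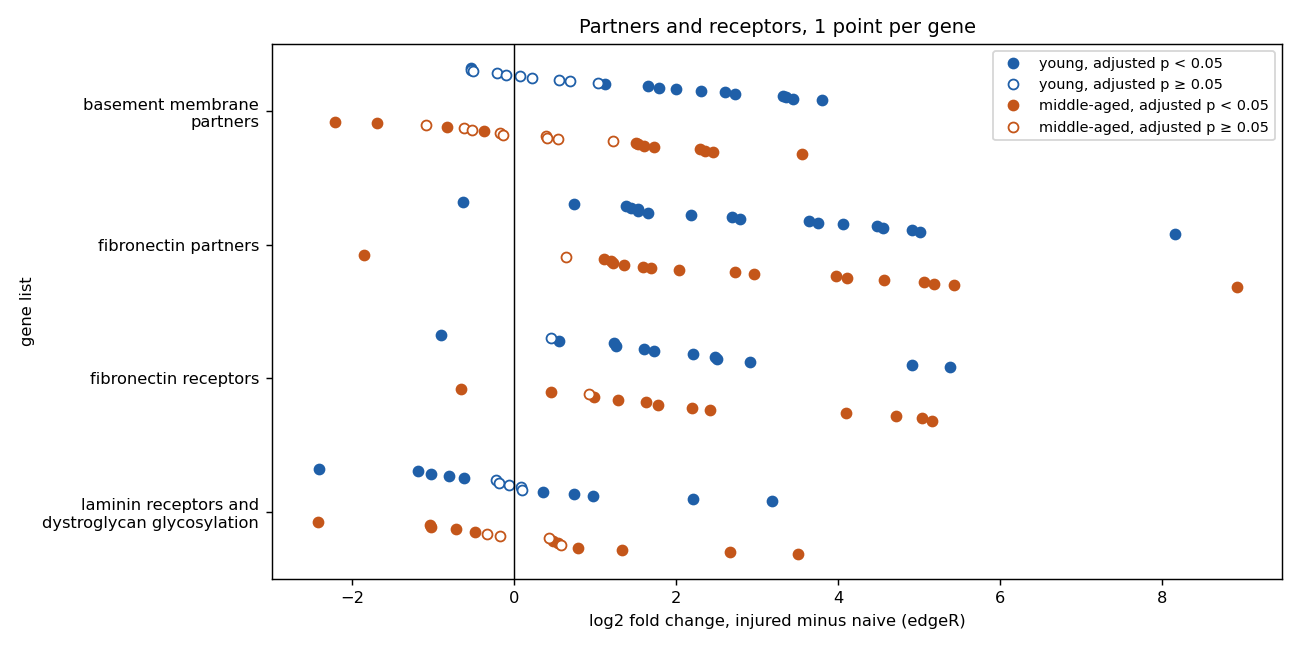
Log2 fold change of injured over naïve mice (x axis, edgeR) for each gene of 4 lists of partners and receptors (y axis), 1 point per gene and age, filled where the adjusted p was under 0.05. Points of the fibronectin partners lie to the right of 0 for 17 of 18 genes at each age, while the laminin receptors lie on both sides.

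Between ages, few of these genes passed. In naïve tissue Pxdn (log2 1.0, adjusted p = 0.00759), Tgm2 (0.83, adjusted p = 0.0414) and Postn (1.99, adjusted p = 0.00589) were higher in middle-aged mice, and Tnc (-0.61, adjusted p = 0.0417), Itga4 (-1.14, adjusted p = 0.0417) and Itgb1 (-0.52, adjusted p = 0.0279) were lower (edgeR). Without the middle-aged naïve pool that stood apart none of the fibronectin receptors passed there. In injured tissue Col4a6 was lower in middle-aged mice by 1.04 (value -1.04, adjusted p = 0.0382), Vcan by 0.75 (value -0.75, adjusted p = 0.0441), and Thbs1 was higher by 1.13 (adjusted p = 0.0271, edgeR). Most of these calls were lost with some pools left out. Among 12 such fits Tgm2 passed in 3, Tnc in 1, Itga4 in 1 and Itgb1 in 4 in naïve tissue, and Col4a6 passed in 6, Vcan in 4 and Thbs1 in 8 in injured tissue, where leaving out replicate 2 or 3 of the young injured or replicate 2 of the middle-aged injured group ended all 3 calls. Pxdn and Postn passed in all 12.

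As a description, each of the 10 genes was set against the 13084 named genes whose log2 CPM averaged 1 or more, by Pearson's r of log2 CPM over the 12 pools. The pools share libraries and fall into 4 groups, so that the group means enter every r. Fn1 was most like Hacd4 (0.996), Tagln2 (0.995) and Laptm5 (0.995), the last of which is a lysosomal protein of leukocytes. Lamb1 was most like Mgat4b (0.995), Col3a1 (0.987) and Lox (0.986), and Hspg2 like Angptl2 (0.981), Col1a1 (0.979) and Pmepa1 (0.971). Lama4 was most like Cavin1 (0.986), Lgals9 (0.977) and Tacc3 (0.976). The gene most like Nid1 was Erg28 (0.933), like Lamc1 Ndc1 (0.955), like Lama2 Tspan6 (0.932), like Lama1 Bambi (0.949) and like Lama5 Ltbp3 (0.904). Lamb2 had no gene above 0.795, its nearest being Ccdc8.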

How the data were processed

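RNA of laser-captured, cresyl violet stained spinal cord white matter was amplified, and an Illumina NextSeq500 read the libraries. Per the submitters' processing notes the tools were FastQC 0.11.4, TopHat 2.0.10, bowtie 1.1.2 and featureCounts, on GRCm38. The authors deposited raw counts per gene for 12 pools. The annotation release, strand setting and handling of shared reads are not given in the sources used here.

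Groups came from the sample labels. The deposited counts were scaled by TMM (factors 0.92 to 1.09) and tested with edgeR 4.0.16 in R 4.3.3 (filterByExpr, glmQLFit, glmQLFTest, all 12 pools, 1 coefficient per group, no covariate). The p-values were adjusted by Benjamini-Hochberg over 15866 genes (threshold 0.05). Standard errors were the absolute log2 fold change over the root of F. A prior count of 2 went into log2 CPM. Nothing in the sources says that pools of a group came from separate experiments, so p-values measure the spread between these pools. Pairs of replicates differed by more than sampling noise (chi-square per degree of freedom of 5.72 or more), so each counted once. Levels per kilobase and chain shares used the union of exons in GENCODE on GRCm38. Of 46078 gene identifiers, 45143 (98.0%) had a symbol. Shares were compared by 2-sided exact permutation tests.

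The 10 genes and all lists were chosen with earlier results of these data known. All 10 genes are named whatever their values; from each other list at most 4 genes are named per comparison, those called with the greatest log2 fold change in either direction, plus genes at or under 3 counts in every pool of a group, unless stated. Some genes that this rule would name are not reported here. For likeness, the 3 genes with the highest r were taken. Alternatives were DESeq2 1.42.0, other size factors, other filters, only the pools compared, the replicate number as a block, other chain lengths and leaving out each pool. Leaving out pools for genes of the other lists was added after the data were seen. The edgeR fit was tested on simulated counts, for injury in young mice alone.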

Additional observations from a re-analysis of the deposited data

Results flagged for a closer look

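The response of Postn, which encodes the fibronectin-binding matricellular protein periostin, differed between ages in the test of that difference. Postn rose from 0.76 ± 0.21 to 17.3 ± 6.21 CPM (SD, n = 3 pools) in young and from 3.09 ± 0.46 to 12.7 ± 1.34 CPM in middle-aged mice. In naïve tissue Postn was higher in middle-aged mice (log2 1.99, adjusted p = 0.00589, edgeR), and between injured ages it was not called. The rise was smaller in middle-aged mice, from that higher naïve level, with a difference of -2.44 on the log2 scale (SE 0.43, adjusted p = 0.0436, edgeR). It was the 1 gene of the fibronectin, laminin, partner and receptor lists that passed this test, which called 0.139% of all genes. With each pool left out in turn the value ran from -2.69 to -2.13, and the adjusted p passed only without replicate 2 of the middle-aged naïve group (0.0448). With the replicate number as a block the adjusted p was 0.0520, and with DESeq2 0.000679. These settings were added after the data were seen.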

How the results depend on the processing

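The counts of the 10 genes called after injury, 7 in the young and 4 in the middle-aged group, were the same under all 7 other settings, and 4 to 5 in middle-aged mice when each pool was left out in turn. Between naïve ages the count of 1 became 2, with Lama4 added, under library totals, DESeq2, no filter and a filter of 10 counts in every pool of a group, and was 1 to 2 with pools left out. Between injured ages the count of 0 became 1 with DESeq2 and without a filter, 3 with only the pools compared, and 0 to 2 with pools left out. For the difference of injury effects, 0 became 1 with DESeq2 and without a filter. The Lamb1 share kept its call throughout. For the alpha chains, 2 shares passed under some settings: -16.3 points for Lama2 and 17.0 for Lama4 with the longest transcript, and -14.5 for Lama2 with the low chains added. With pools left out they ran from -17.4 to -13.4 for Lama2 and from 12.3 to 20.8 for Lama4. Values near 0 changed sign without changing a call. With library totals Nid1 stood at 0.0084 for injury in middle-aged mice and Lamc1 at -0.032 for the difference of injury effects. For injury in middle-aged mice the range with pools left out was -0.53 to 0.25 for Lama2, -0.096 to 0.67 for Lama5, -0.0034 to 0.57 for Lamc1 and -0.25 to 0.041 for Nid1. It was -0.021 to 0.61 for Fn1 between naïve ages, -0.18 to 0.026 for Fn1 between injured ages, and -0.22 to 0.36 for Lamc1 in the difference of injury effects. The causes were not tested. The replicate numbers come from the labels, and pools with the same number did not deviate together (correlations of -0.113 to 0.153 over genes). With the number as a block the counts stayed at 7, 4, 1, 0 and 0. Lama1 and Lama5, with 6 to 33 counts in naïve pools, had standard errors of 0.40 to 0.46 for the injury effects, against 0.20 to 0.38 for the other 8 genes. Lamb1 and Hspg2 also rested on few naïve counts, 19 to 35 and 18 to 29 per pool, with standard errors of 0.26 to 0.28. Lamb3 had 0 to 9 counts.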
